A study of Homo sapiens with 4 samples.

Results

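The genes that make and use small RNAs were followed in HCT116 cells, an established human colon cancer line, after siRNA against the long noncoding RNA LINC00152. The set held 10 genes chosen by symbol, AGO1 to AGO4, DICER1, DROSHA, DGCR8, XPO5, TARBP2 and TNRC6A. All 10 were found among the 19974 symbols listed per library, and all 10 were among the 11222 genes tested. The Control group received a non-targeting control siRNA and the si-LINC00152 group an siRNA against LINC00152, each at 100 nM for 36 h. RNA from 2 biological replicates per group, 4 libraries in all, was sequenced. Both groups therefore carried transfected siRNA, and no untransfected cells were analysed here. The data come from 1 cell line.

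MicroRNAs are cut from long primary transcripts in the nucleus by the Microprocessor, in which DROSHA is the nuclease and DGCR8 the RNA-binding partner. XPO5 carries the hairpin to the cytoplasm, where DICER1, helped by TARBP2, cuts it to a short duplex. A strand of the duplex, or of a transfected siRNA, is loaded into an Argonaute protein, which recruits TNRC6 proteins to repress the paired mRNA. Among the human Argonautes, AGO2 is the one best known for cutting a perfectly paired target, which is how an siRNA lowers its target RNA.

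In AGO2 complexes of these cells the study looked for miR-4722-5p, miR-632 and miR-185-3p. The mature sequences of miR-185-3p and miR-4722-5p are shown as examples of the cargo that the 10 genes make and carry. The seed (bases 2 to 8 from the 5′ end), the part that first pairs with a target, is in capitals. The sequences are from RefSeq (GRCh38.p14) and lie at chr22:20033188-20033209 on the plus strand and at chr16:88716315-88716337 on the minus strand.
hsa-miR-185-3p: aGGGGCUGgcuuuccucugguc
hsa-miR-4722-5p: gGCAGGAGggcugugccagguug
The seeds of the pair differ. The hairpin of miR-185, at positions 20033139 to 20033220 of chromosome 22, lies within TANGO2 and ends 47011 bases before DGCR8 begins. TANGO2 was at 7.44 and 7.78 FPKM (fragments scaled to transcript length and library total, the unit taken for the deposited values) in the Control libraries. It was at 6.73 and 8.19 FPKM in the si-LINC00152 libraries, on either side of the Control values. These libraries measured mRNA of the host gene, not the mature microRNA.

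None of the 10 genes passed the test between si-LINC00152 and Control. In limma's test on log2(FPKM + 1), 0 of 10 had an unadjusted p under 0.05, against 4.38% of all genes tested. With a fold change above 1.5 asked for as well, the count was 0 of 10, against 1.66% of all genes. With an adjusted p under 0.05, the count was 0 of 10, against 0.0178% of all genes (2 genes). The Benjamini-Hochberg adjusted p was 1.00 for each of the 10 in limma's test. The estimates were above 0 for 9 of the 10 and below 0 for TARBP2. Their median was 0.12 on the log2 scale, beside 0.02 over all genes tested. The p-values rest on the spread between these 4 cultures, and limma draws the variance of each gene toward that of genes of similar level. In bulk RNA, fewer cells with a transcript and less of it per cell cannot be told apart.

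**Figure D1:**
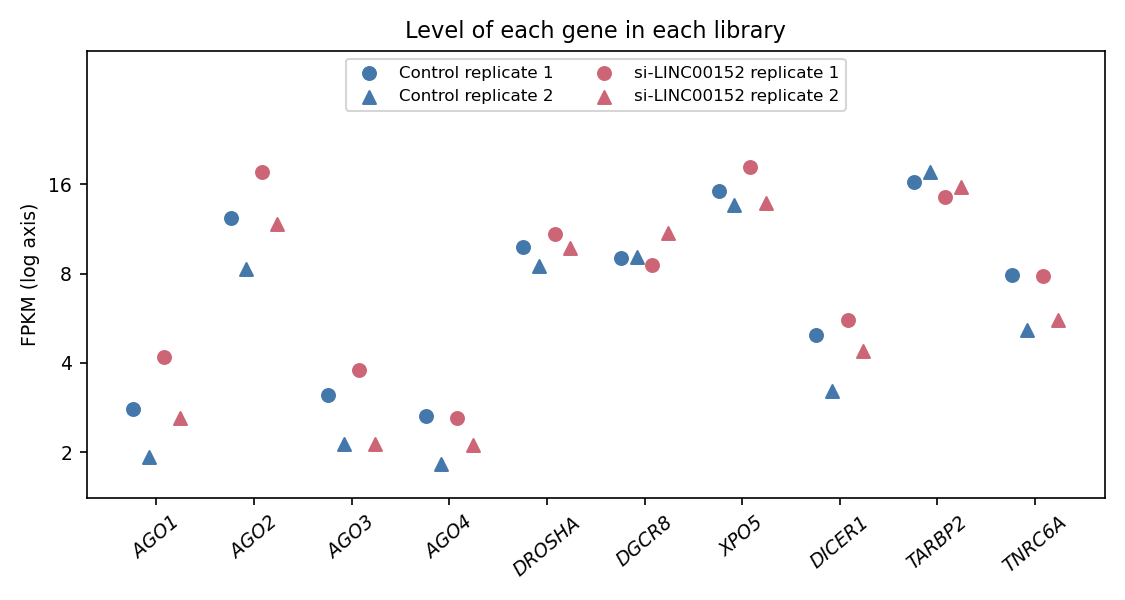
FPKM on a log axis for the 10 genes in each of the 4 libraries, with Control in blue, si-LINC00152 in red, replicate 1 as circles and replicate 2 as triangles. Both TARBP2 values of si-LINC00152 (14.5 and 15.7) lie below both of Control (16.3 and 17.6), and in each of the other 9 genes the groups overlap.

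TARBP2 had the highest mean over the 4 libraries (16.0 FPKM), followed by XPO5 (15.2) and AGO2 (12.5). DROSHA (9.75) and its partner DGCR8 (9.41) came next, then TNRC6A (6.62) and DICER1 (4.54). AGO1 (2.88), AGO3 (2.79) and AGO4 (2.30) were the lowest. Among neighbours in this order, only DGCR8 and TNRC6A had ranges over the libraries that did not overlap. AGO1 was above AGO3 in both si-LINC00152 libraries and below it in both Control libraries. TARBP2 stood at percentile 64.4 of all genes tested and AGO4 at percentile 12.3, so the set ran from the lower expressed genes to somewhat above the middle.

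In the Microprocessor, DROSHA was at 9.86 and 8.51 FPKM in Control and at 10.9 and 9.74 FPKM in si-LINC00152. The groups overlapped, and the difference was 0.15 on the log2(FPKM + 1) scale (SE 0.18, 95% interval -0.26 to 0.56). DGCR8 was at 8.99 and 9.07 FPKM in Control and at 8.58 and 11.0 FPKM in si-LINC00152. The si-LINC00152 libraries lay on either side of the Control libraries, with a difference of 0.10 (95% interval -0.33 to 0.52). The ratio of DROSHA to DGCR8, the paired subunits, was 1.10 and 0.938 in Control and 1.27 and 0.886 in si-LINC00152. It was above 1 in both replicates 1 and below 1 in both replicates 2, whichever siRNA was used (exact permutation test between groups, p = 1.0). DROSHA lies at chr5:31400497-31532196 on the minus strand and DGCR8 at chr22:20080232-20111877 on the plus strand, in GRCh38 with GENCODE 29.

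XPO5, the exportin of the precursor hairpins, was at 15.1 and 13.6 FPKM in Control and at 18.3 and 13.8 FPKM in si-LINC00152. Only si-LINC00152 replicate 1 stood above all Control values. The difference was 0.14 (95% interval -0.29 to 0.56), and within replicate numbers it was 0.26 and 0.02. XPO5 lies at chr6:43522330-43576075 on the minus strand.

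DICER1, the nuclease that cuts the exported hairpin, was at 4.97 and 3.23 FPKM in Control and at 5.57 and 4.38 FPKM in si-LINC00152. Each replicate number was higher in si-LINC00152 (by 0.14 and 0.35), but si-LINC00152 replicate 2 lay below Control replicate 1. The difference was 0.24 (SE 0.23, 95% interval -0.27 to 0.76). TARBP2, the double-stranded RNA-binding partner of DICER1, went the other way, with 16.3 and 17.6 FPKM in Control and 14.5 and 15.7 FPKM in si-LINC00152. It was the 1 gene of 10 whose groups did not overlap, against 30.4% of all genes tested, and both replicate numbers were lower by 0.16. The limma test did not call this difference (-0.16, 95% interval -0.53 to 0.22), and the interval in fold was 0.690 to 1.17. The ratio of DICER1 to TARBP2 was 0.305 and 0.183 in Control and 0.383 and 0.279 in si-LINC00152, with overlapping groups (exact permutation p = 0.667). It sets a long transcript (DICER1, 10331 bases) against a short one (TARBP2, 1867 bases) and was not corrected for the length trend described below. DICER1 lies at chr14:95086228-95158010 on the minus strand and TARBP2 at chr12:53500921-53506431 on the plus strand.

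**Figure D2:**
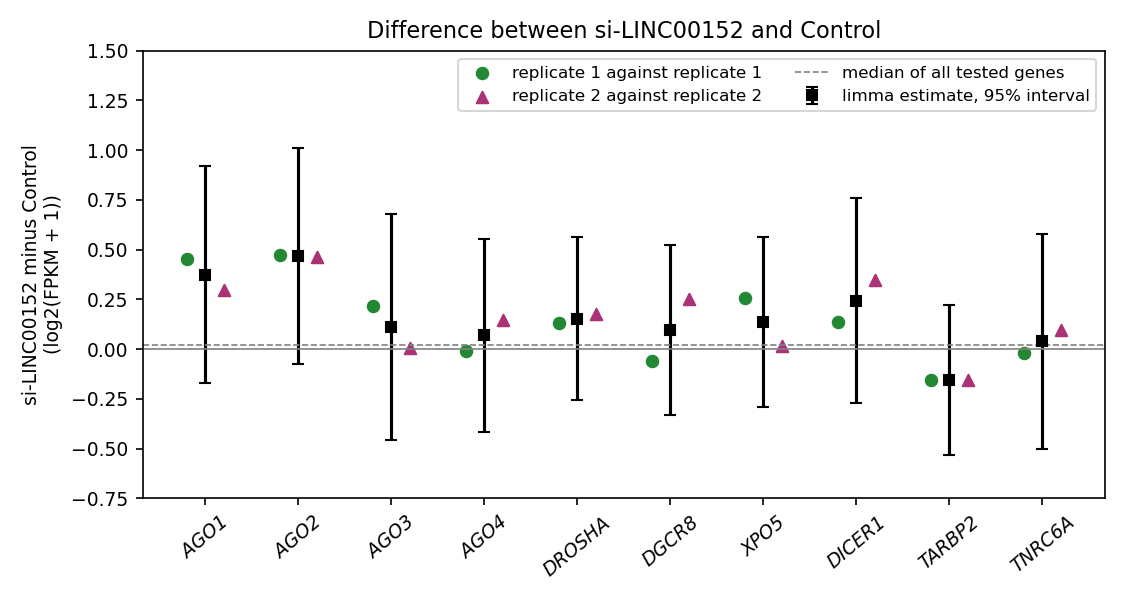
Difference between si-LINC00152 and Control on the log2(FPKM + 1) scale for each gene, with the difference within each replicate number (circle, replicate 1; triangle, replicate 2), and the limma estimate with its 95% interval (square). All 10 intervals include 0, and AGO2 (0.47 and 0.46) and TARBP2 (both -0.16) have nearly the same difference in both replicate numbers.

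AGO2 had the largest estimate of the 10 on the log2(FPKM + 1) scale. It was at 12.4 and 8.27 FPKM in Control (mean 10.3 ± 2.89, SD, n = 2) and at 17.5 and 11.8 FPKM in si-LINC00152 (mean 14.6 ± 4.07, SD, n = 2). The mean was 1.42 times that of Control, and the difference was nearly the same in replicate 1 (0.47 on the log2 scale) and replicate 2 (0.46). The groups still overlapped, since si-LINC00152 replicate 2 lay below Control replicate 1. Within a group, replicate 1 was above replicate 2 by 0.53 in Control and by 0.54 in si-LINC00152, which was more than the difference between the groups. The limma estimate was 0.47 (SE 0.24, 95% interval -0.08 to 1.01), and its interval in fold ran from 0.949 to 2.01. The AGO2 estimate was 0.73 without Control replicate 1 and 0.74 without si-LINC00152 replicate 2. It was 0.20 without Control replicate 2 or si-LINC00152 replicate 1. With the replicate number as a block, AGO2 and AGO1 had an unadjusted limma p under 0.05, as did 16.9% of all genes. Neither had an adjusted p under 0.05 in that fit, and the labels do not show that the numbers pair the libraries. AGO2 lies at chr8:140520156-140635619 on the minus strand.

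AGO1 had the next largest estimate. It was at 2.80 and 1.93 FPKM in Control and at 4.19 and 2.61 FPKM in si-LINC00152, higher in both replicate numbers (0.45 and 0.30). As with AGO2, si-LINC00152 replicate 2 lay below Control replicate 1. The difference was 0.38 (SE 0.24, 95% interval -0.17 to 0.92). The mean of AGO1 was 1.44 times that of Control, about the same as the 1.42 times of AGO2. With a pseudocount of 0.1 the estimates were 0.49 for AGO1 and 0.50 for AGO2. AGO3 was at 3.11 and 2.12 FPKM in Control and at 3.78 and 2.14 FPKM in si-LINC00152, with a difference of 0.11 (95% interval -0.46 to 0.68). Replicate 1 was 0.22 higher and replicate 2 was 0.01 higher, on the same scale. AGO4 was at 2.64 and 1.82 FPKM in Control and at 2.62 and 2.12 FPKM in si-LINC00152, where the replicate numbers went opposite ways (difference 0.07, 95% interval -0.42 to 0.55). AGO4, AGO1 and AGO3 lie one after another on the plus strand of chromosome 1 within 264329 bases (35808172 to 36072500), with 11917 bases between AGO4 and AGO1 and 189 bases between AGO1 and AGO3. The estimates of these neighbours ran from 0.07 in AGO4 to 0.38 in AGO1, and the interval of each spans the estimates of the other two.

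A share within a library does not depend on how the library was scaled. AGO2 made up 59.1% and 58.5% of the summed FPKM of the 4 Argonautes in Control, and 62.3% and 63.2% in si-LINC00152. The mean share was 58.8% ± 0.461 (SD, n = 2) and 62.7% ± 0.569 (SD, n = 2), with no overlap and a gap of 3.97 percentage points that was larger than either SD. With 2 libraries per group the exact permutation test cannot go below 0.333, and it gave p = 0.333 (two-sided, adjusted p = 1.0 over 5 such comparisons). The AGO3 share was 14.9% and 15.0% in Control and 13.4% and 11.5% in si-LINC00152. The AGO4 share was 12.6% and 12.9% in Control and 9.32% and 11.4% in si-LINC00152. AGO3 and AGO4 thus each took a smaller share in both si-LINC00152 libraries than in either Control library. The shares are parts of a sum, so a rise in some means a fall in others. In mean FPKM, AGO3 was 1.13 times and AGO4 1.06 times the Control value. The AGO1 share was 13.4% and 13.6% in Control and 14.9% and 14.0% in si-LINC00152, higher in both si-LINC00152 libraries. The ratio of AGO2 to AGO1 was 4.42 and 4.28 in Control and 4.19 and 4.52 in si-LINC00152, with no separation of the groups. The summed Argonaute FPKM was 20.9 and 14.1 in Control and 28.1 and 18.6 in si-LINC00152, with overlapping groups (exact permutation p = 0.667).

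**Figure D3:**
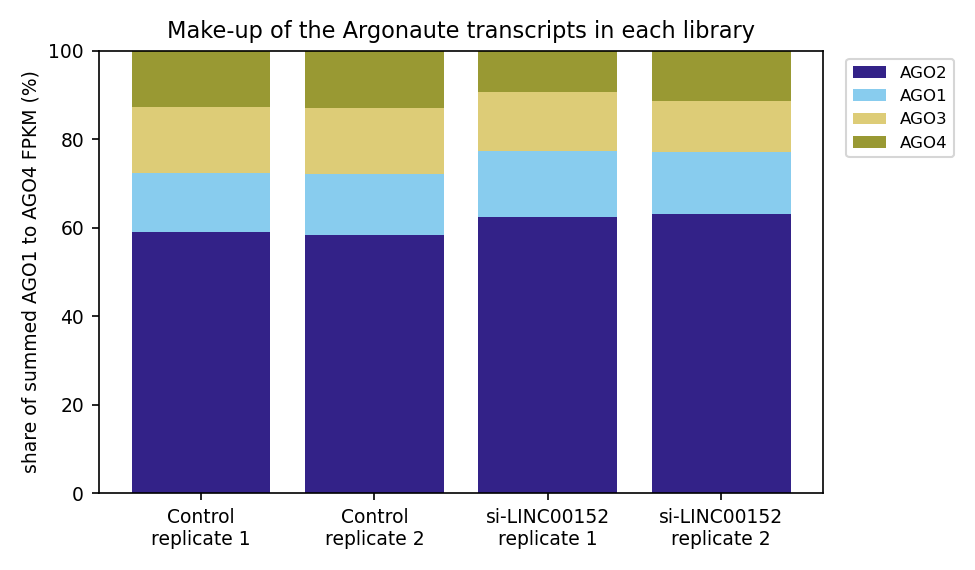
Share of each Argonaute in the summed FPKM of AGO1 to AGO4, in percent, for each of the 4 libraries. The AGO2 part is 59.1% and 58.5% in Control and 62.3% and 63.2% in si-LINC00152.

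TNRC6A, a scaffold that links Argonaute to the deadenylases, was at 7.93 and 5.15 FPKM in Control and at 7.83 and 5.57 FPKM in si-LINC00152. Both groups covered much the same range, and the difference was 0.04 (95% interval -0.50 to 0.58). Its paralogs were lower, with TNRC6B at 1.96 to 3.29 FPKM and TNRC6C at 1.92 to 3.28 FPKM. TNRC6A made up 57.2% and 57.0% of the summed FPKM of the TNRC6 genes in Control and 54.4% and 57.8% in si-LINC00152 (exact permutation p = 1.0). TNRC6A lies at chr16:24610209-24827632 on the plus strand.

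For 9 of the 10 genes the mean difference between replicate 1 and replicate 2 was larger than that between the groups, TARBP2 being the exception. In each group, 8 of the 10 genes were higher in replicate 1 than in replicate 2, the exceptions being TARBP2 and DGCR8 in both groups. These counts were not made over all genes. The split by replicate number was not particular to the set. On the main axis of variation over all tested genes (first principal component, 54.4% of the variance), replicates 1 also stood apart from replicates 2. Within replicate numbers, 7 of the 10 moved the same way in both, 6 higher and 1 lower in si-LINC00152, against 63.0% of all genes tested. The labels do not say that a number marks a shared day or culture.

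The difference between replicates followed the length of the transcript, taken as the longest protein-coding one in GENCODE 29. Among genes over 8000 bases, the median difference between replicate 1 and replicate 2 was 0.37 in Control and 0.31 in si-LINC00152 (log2 scale). Among genes up to 1500 bases it was -0.24 and -0.37. AGO1, AGO2, AGO3, DICER1 and TNRC6A belong to the longest class (8438 to 19687 bases), with AGO2 at 14581 bases, of which 81.5% is 3′-UTR. TARBP2 has 1867 bases. The difference between si-LINC00152 and Control also followed length, with a median of 0.09 in the longest class and -0.12 in the shortest. AGO2, AGO1, DICER1 and AGO3 lay above the median of their class, and TNRC6A below it.

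**Figure D4:**
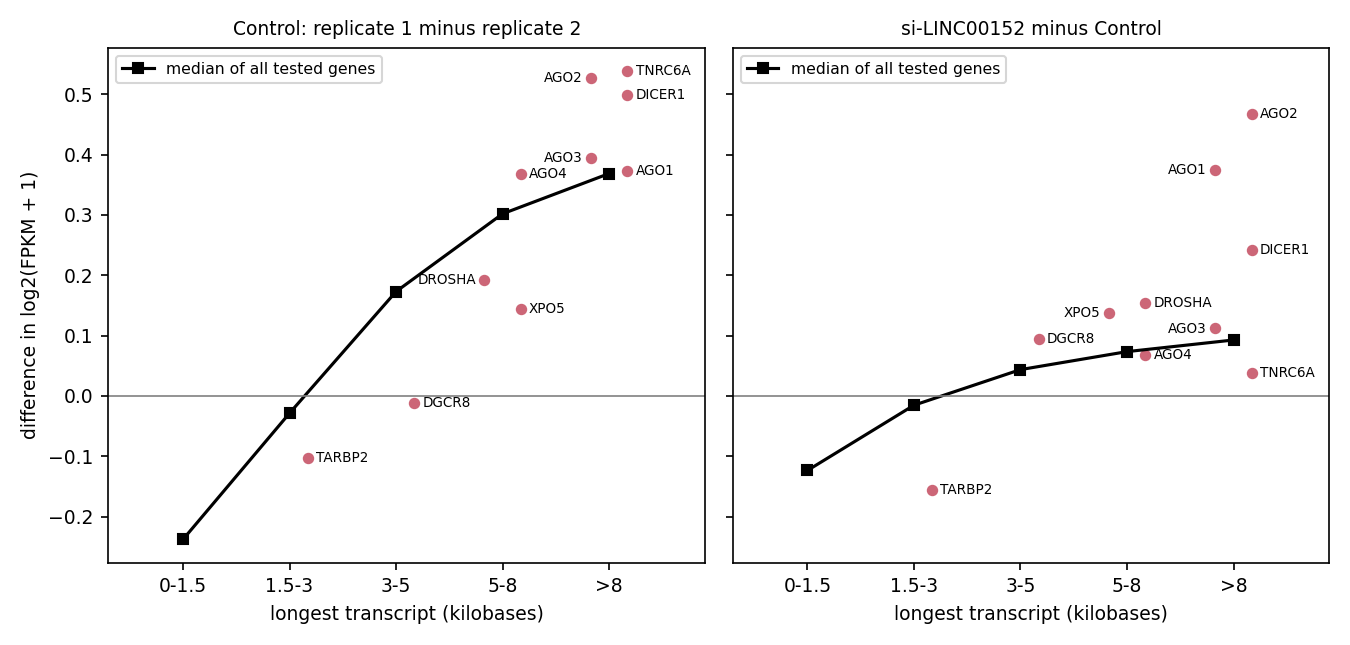
Median difference on the log2(FPKM + 1) scale of all tested genes in 5 classes of transcript length (black squares), with the 10 genes as red points, set beside each other within their class. Left, Control replicate 1 minus replicate 2, which runs from -0.24 in the shortest to 0.37 in the longest class; right, si-LINC00152 minus Control, which runs from -0.12 to 0.09, with AGO2 (0.47) and AGO1 (0.38) above the line.

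With the trend on length taken out of each library, AGO2 was 0.36 higher in si-LINC00152 (SE 0.13, limma adjusted p = 0.492), by 0.40 in replicate 1 and 0.32 in replicate 2. It was the 1 gene of 10 with an unadjusted p under 0.05 in that fit, against 9.51% of all genes. AGO1 was 0.27 higher and TARBP2 0.11 lower, and neither passed. AGO3, AGO4 and TNRC6A moved to -0.0057, -0.0085 and -0.045. This fit was added after the length trend was seen. What set the length trend was not tested.

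The rest of the pathway was read from 7 lists of 124 genes, of which 113 were in the tables and 102 were tested. Of the 102, 2 had an unadjusted p under 0.05 in limma (1.96%, against the 4.38% over all genes), 1 higher and 1 lower, and 0 had an adjusted p under 0.05. The groups did not overlap for 26 of them (25.5%, against the 30.4% over all genes). The median difference of the 102 was 0.03. The list of genes for the loading of Argonaute, mostly chaperones, held the 1 that was higher. DNAJA2, a co-chaperone of HSP70, was at 17.6 and 16.2 FPKM in Control and at 22.9 and 21.9 FPKM in si-LINC00152. Both si-LINC00152 libraries were above both Control libraries, by 0.39 (SE 0.16), which passed at an unadjusted p under 0.05 (limma adjusted p = 1.00). HSP90AB1, the most abundant gene of this list, was at 529 to 645 FPKM with a difference of 0.05. HSPA8 was 0.21 lower without passing the test.

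The list of microRNA host genes held the 1 that fell. COPZ1, a coat protein of vesicles between Golgi and endoplasmic reticulum, was at 113 and 121 FPKM in Control and at 73.1 and 85.2 FPKM in si-LINC00152. The groups did not overlap, and the difference was -0.56 (SE 0.18), which passed at an unadjusted p under 0.05 (limma adjusted p = 0.878). It was 1 of 32 genes of the host list tested, and the median of the 32 was 0.02. By RefSeq positions, 31 of the 32 hold a microRNA wholly within their bounds, and none was found there for ZNF207. A microRNA that overlaps only an end of a gene was not counted, and mature miR-632 was not among the positions used. ZNF207 may therefore still host a microRNA. Strand was not compared, so a microRNA within the bounds need not be part of the transcript. HNRNPK, the most abundant gene of the list, had a difference of 0.03 and CHM, with the largest estimate, one of 0.24.

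Among the 13 tested cofactors of primary processing, 0 passed at an unadjusted p under 0.05 in limma, and their median was 0.06. HNRNPA1, an RNA-binding protein that also helps the processing of some primary microRNAs, was at 490 and 444 FPKM in Control and at 334 and 356 FPKM in si-LINC00152. Both si-LINC00152 libraries were below both Control libraries, with a difference of -0.44 on the log2 scale (SE 0.22). It did not pass the test, but passed at an unadjusted p under 0.05 once the length trend was removed (-0.48), as did 9.51% of all genes. KHSRP, another such protein, had a difference of 0.26. Among the 11 genes of transport and turnover, 0 passed at an unadjusted p under 0.05 in limma, with RAN, the GTPase of nuclear export, at 249 to 269 FPKM and a difference of -0.05. TUT4 (listed as ZCCHC11), which adds uridines to precursors, had a difference of 0.21 and TSNAX, a subunit of the nuclease that removes passenger strands, one of -0.29.

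Among the 11 effector partners, 0 passed at an unadjusted p under 0.05 in limma. MOV10, an RNA helicase bound to Argonaute, was at 26.9 and 24.2 FPKM in Control and at 21.3 and 20.7 FPKM in si-LINC00152. These groups did not overlap, with a difference of -0.27 (SE 0.16) that did not pass the test. Once the length trend was removed, MOV10 passed at an unadjusted p under 0.05 (-0.31), as did 9.51% of all genes. SND1, the most abundant of this list, had a difference of 0.01, and WTIP, with the largest estimate, had 0.25. Among the 22 genes of deadenylation and decapping, through which Argonaute lowers its targets, 0 passed at an unadjusted p under 0.05 in limma, and the median was 0.05. DCP1A, a decapping cofactor, had the largest estimate (0.27) and CNOT6, a deadenylase, the lowest (-0.22). CNOT6 also passed at an unadjusted p under 0.05 once the length trend was removed (-0.29), as did 9.51% of all genes. Of the 6 pathway genes that passed in that fit, AHSA1 (0.42, loading list) and DNAJA2 (0.36) were higher. The others, CNOT6, COPZ1, HNRNPA1 and MOV10, were lower. PABPC1, the poly(A)-binding protein, was at 828 to 916 FPKM with a difference of 0.03. The 8 germline relatives of these genes, such as the PIWI proteins, were at 0.458 FPKM or less in every library and were not tested.

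**Figure D5:**
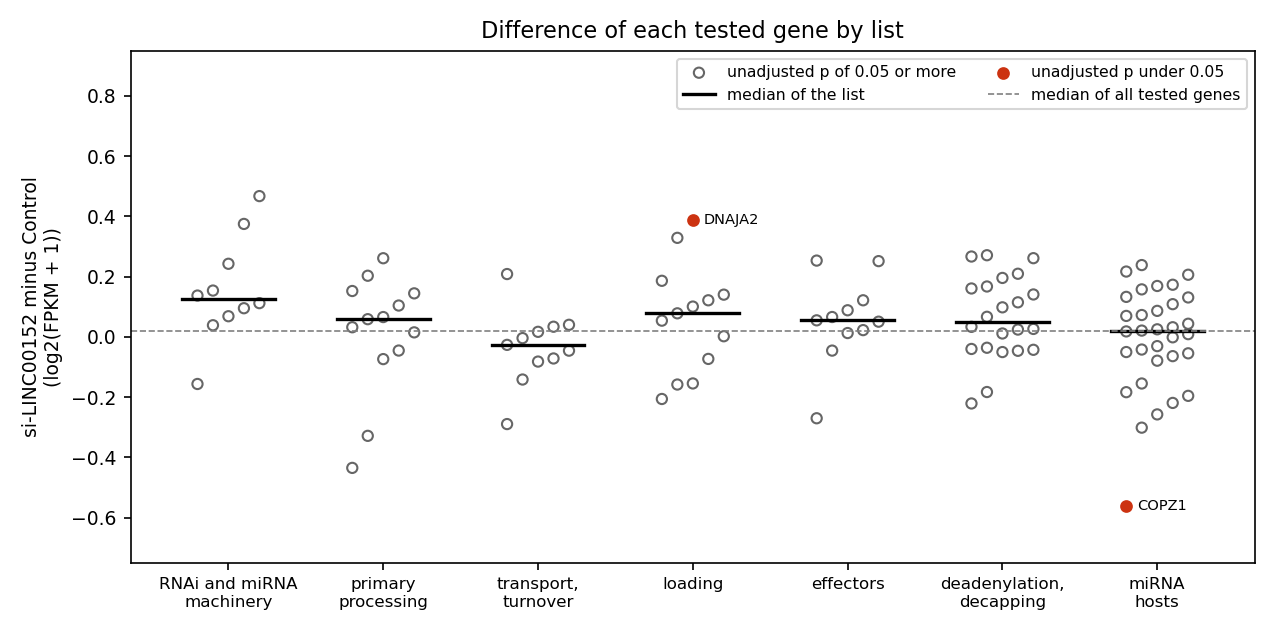
Difference between si-LINC00152 and Control on the log2(FPKM + 1) scale for each tested gene of the 10-gene set and of the 6 pathway lists with tested genes, with list medians as black bars and the median of all genes as a dashed line. Filled red points are the 2 genes with an unadjusted p under 0.05, DNAJA2 (0.39) and COPZ1 (-0.56).

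The libraries held the markers of an epithelial line. EPCAM was at 190 to 240 FPKM and KRT8 at 718 to 1138 FPKM, and 6 of 8 epithelial markers were tested, while the intestinal markers CDH17 and VIL1 stayed at 0.0567 FPKM or less. All 6 had estimates below 0 (median -0.25 on the log2 scale, beside 0.02 over all genes tested), and none of the 6 passed the limma test. KRT8, KRT18 and CLDN4 were lower in both si-LINC00152 libraries than in both Control libraries (3 of 6, against 30.4% of all genes). The groups overlapped for CDH1 (-0.02), EPCAM (-0.09) and KRT19 (-0.25). Of the 6, only KRT8 passed at an unadjusted p under 0.05 once the length trend was removed (-0.42), as did 9.51% of all genes. Whether the epithelial markers bear on the differences of the 10 genes was not tested. Of 11 markers of blood, fibroblast, endothelium, liver and germ line, only COL1A1 exceeded 1 FPKM (7.02 to 7.98), the fibroblast gene COL1A2 and the blood gene PTPRC were at 0 in all 4 libraries, and the summed level was 7.53 to 8.72 in Control and 7.91 to 8.74 in si-LINC00152. The summed FPKM was 424754 to 534311 per library, with 14589 to 14686 genes above 0. LINC00152 was not analysed here, so the knockdown itself was not checked. FPKM does not give the number of reads, and the depth of each library is unknown.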

How the data were processed

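HCT116 cells were transfected with control or LINC00152 siRNA, and the labels gave each library's group and replicate number. Each library has its own deposited table of gene symbols with FPKM values, which the authors made from their reads. The unit was inferred from the values, since neither the labels nor the tables name it. The submitters' processing notes name Trimmomatic, TopHat, HISAT2, HTSeq and DESeq without versions and the build GRCh38, with no role or order given. FPKM divides by length and by library total, so a change in a few abundant genes or in RNA integrity shifts other values. Depth is unknown, and no common step was found in low values (the fullest bin held 3.30% to 4.52% of ratios), so no counting error is given.

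The planned count test could not be used, and its written alternative for normalized values was. The 11222 genes reaching 1 FPKM in 2 or more libraries entered the test on log2(FPKM + 1) with limma 3.58.1 in R 4.3.3, two-sided, with a mean-variance trend, group as the only term and Benjamini-Hochberg adjustment over all genes. Fold changes on this scale understate those of low genes. Single values were compared with exact permutation tests (scipy 1.17.1). Transcript lengths and positions are from GENCODE 29 (GRCh38), which gave a length for 96.1% of tested genes and all 10 of the set. The test was also tried on simulated data. Symbols that had become dates (28) or were repeated (2) were not named.

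The 10 genes and the pathway lists were chosen with earlier results of these data known. Named from the lists were genes with an unadjusted p under 0.05 and, in each list, the most abundant gene and those with the largest and smallest difference. TNRC6B, TNRC6C, TANGO2 and the cell type markers were named for their relation to the set. AHSA1 was named for an unadjusted p under 0.05 once the length trend was removed. Alternatives were another pseudocount (0.1), other filters, scalings and variance models, the replicate block, each library left out, and, added later, removal of the length trend (lowess, span 0.3).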

Additional observations from a re-analysis of the deposited data

How the results depend on the processing

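Over 13 alternatives for each of the 10 genes (130 values), 108 kept their direction and side of an unadjusted p of 0.05, 7 passed it with the same direction, and 15 turned direction. The 7 were all AGO2 or AGO1. Scaling by size factors, a pseudocount of 0.1, either other filter and a fit without the variance trend turned no direction and changed no call. Without Control replicate 1, AGO2 was 0.73 and AGO1 0.56, and without si-LINC00152 replicate 2, AGO2 was 0.74, each with an unadjusted limma p under 0.05. In these fits the lone sample of a group is assumed to vary like the other group. With 1 library left out at a time, AGO2 ran from 0.20 to 0.74, AGO1 from 0.11 to 0.64, DROSHA from 0.058 to 0.25, TARBP2 from -0.21 to -0.10, AGO3 from -0.19 to 0.41, AGO4 from -0.12 to 0.25, DICER1 from -0.0069 to 0.49, TNRC6A from -0.23 to 0.31, XPO5 from -0.054 to 0.33 and DGCR8 from -0.067 to 0.26. The number of the 10 genes called then ran from 0 to 2, that of pathway genes from 0 to 3, the share of all genes from 2.76% to 6.45%, the median of the 10 (0.12) from 0.021 to 0.29 (0.021 without si-LINC00152 replicate 1 and 0.026 without Control replicate 2, when 0 pathway genes were called), and the gap in AGO2 share from 3.57 to 4.37 points. Quantile normalization gave a median of 0.10. The adjusted p of AGO2 ran from 0.0928 to 1.0 over its alternatives.

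Removal of the length trend, chosen after seeing the data, gave 1 of the 10 called and 6 of the 102 pathway genes, against 9.51% of all genes. The 6 were AHSA1, CNOT6, COPZ1, DNAJA2, HNRNPA1 and MOV10. The median of the 10 genes was 0.054. AGO3 was then -0.0057, AGO4 -0.0085 and TNRC6A -0.045. With the replicate number as a block, 2 of the 10 were called (AGO2, limma adjusted p = 0.0928, and AGO1, adjusted p = 0.204), 0 with an adjusted p under 0.05, and 12 pathway genes (HNRNPA1 and MOV10 among them), but also 16.9% of all genes (1893, of which 78 adjusted). With the replicate block and the length trend removed together, 1 of the 10 (AGO2, limma adjusted p = 0.137), 11 pathway genes and 18.0% of all genes were called, with the same values for AGO3, AGO4 and TNRC6A. Libraries with the same number deviated together (correlation 0.52 over genes), but with 2 pairs and no label for a shared batch this does not show that the numbers pair the samples. The cause of these shifts was not tested. FPKM gives no depth, which limits what can be said of AGO1, AGO3 and AGO4, the lowest genes of the set.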
